A study of Mus musculus with 6 samples.

Results

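The fatty acid oxidation genes described here are 35 mouse genes on a fixed list that covers fatty acid uptake, activation, the carnitine shuttle, mitochondrial and peroxisomal beta oxidation, and the transcription factors known for this pathway. They were taken by symbol among the 49315 genes counted in each of 6 RNA sequencing libraries, and all 35 were found. Of these, 31 had 2 CPM or more (CPM divides each count by its library's total) in 1 library or more and were kept, of 12928 genes kept in all. The 4 left out were Cd36, a surface fatty acid translocase (highest CPM 1.61), the coactivator Ppargc1a (0.721), the acyl-CoA synthetase Acsl6 (0.464) and the nuclear receptor Ppara (0.0901).

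The cells were CBir1 TCR Tg CD4 T cells, which carry a transgenic T-cell receptor for a flagellin of gut bacteria, on the C57BL/6 background. For 5 of the libraries, CD45.1 donor cells without surface CD44 were moved on day 0 into C57BL/6 hosts that carry CD45.2. Days 1 and 7 brought i.p. immunisation with CBir1 flagellin (50 ug) together with CT (1 ug). The groups then differed on days 28 and 35. The No treatment mice received nothing at that time. The other 4 groups received 3 ug MEP1 i.v., the antigen of the protocol, and then for 5 days either the vehicle CMC alone (MEP1+CMC), metformin in CMC (MEP1+Metformin), rapamycin in CMC (MEP1+Rapamycin) or both (MEP1+Metformin+Rapamycin, the combination below). Metformin inhibits mitochondrial complex I and thereby activates AMPK, and rapamycin inhibits mTOR complex 1. Per the protocol all 5 groups met 3 ug MEP1 again on day 56, and the donor cells left in the spleen were sorted on day 63. The sixth library is the naive CD4 control, of CBir1 TCR Tg cells that carry the same receptor. How those cells were sorted, the age and sex of the mice and whether mice were pooled could not be read from the labels. In its file, the counts of No treatment carry a heading that says not challenged, against the label. The label was followed, and whether the day 56 challenge differed cannot be told apart from the groups in any comparison with No treatment.

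Fatty acid oxidation starts when a fatty acid is released or taken up, joined to coenzyme A and passed over the inner mitochondrial membrane by carnitine carriers. Inside, a cycle of dehydrogenation, hydration, a further dehydrogenation and thiolysis shortens the chain by one acetyl-CoA per turn, and electrons leave through the electron transfer flavoprotein. In CD4 T cells, memory and regulatory cells are known for relying on this pathway more than activated effector cells do, and AMPK favours it while mTOR complex 1 opposes it.

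Each condition was 1 library, so a ratio of 2 libraries below carries only a 95% counting interval and no replicate error. Total counts ranged from 26139000 (naive) to 60622310 (No treatment). Genes of CD4 T-cell identity were high in all 6, with the sum of 17 markers between 11050 and 13827 TMM-normalized CPM (CPM scaled by trimmed mean of M values). Other cells left signal as well. The sum of 21 macrophage and monocyte markers was 4148 in No treatment, 640 to 920 in the 4 MEP1 libraries and 106 in naive cells, and the 10 erythroid and platelet markers measured summed to 1623 in No treatment against 56.7 to 390 in the rest. Loci resembling ribosomal RNA took 15.4% of the counts in the naive library and 1.00% to 3.13% elsewhere. The sex-linked genes differed too. Xist, expressed from the inactive X chromosome of females, was 257 in MEP1+CMC and 0.218 to 0.532 in the 3 inhibitor libraries, while Y-linked Ddx3y was 0.301 and 67.9 to 95.9 in the same libraries, so that inhibitor and sex cannot be told apart in comparisons with MEP1+CMC. No treatment held both (23.0 and 34.2), and naive cells held Xist (42.8) with little Ddx3y (0.374), so the comparisons of No treatment with naive cells and with MEP1+CMC also differ in sex-linked genes.

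The core enzymes of the pathway were expressed in every library. On a scale per kilobase of exon, averaged over the 5 transferred libraries, the highest members were Eci1 (63.7 TMM-normalized CPM per kb), an isomerase for unsaturated fatty acids, and Acaa2 (56.6), the mitochondrial 3-ketoacyl-CoA thiolase. The synthetase Acsl5 followed at 43.6 on that scale, Etfa at 38.1, and Acadl and Etfb both at 36.2. The lowest kept member was the nuclear receptor gene Ppard at 0.549. Levels held within a narrow band over the transferred libraries. The highest library was less than 1.5 times the lowest in 23 of 31 members (74.2%), against 43.3% of all genes, and the median SD of the log2 level over these 5 libraries was 0.161 for the members and 0.267 for all genes. Among genes with a mean of at least 10 CPM the medians were 0.159 (28 members) and 0.214 (8636 genes). In that set 82.1% of members and 58.3% of genes were below 1.5-fold, and 3.57% and 11.3% were at least 2-fold. Of all 31 members, only 3 differed by at least 2-fold between their highest and lowest transferred library (9.68%, against 27.9% of all genes). These were the nuclear receptor Pparg (4.48-fold), the fatty acid-binding protein Fabp5 (4.39-fold) and the synthetase Acsl3 (2.26-fold).

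**Figure D1:**
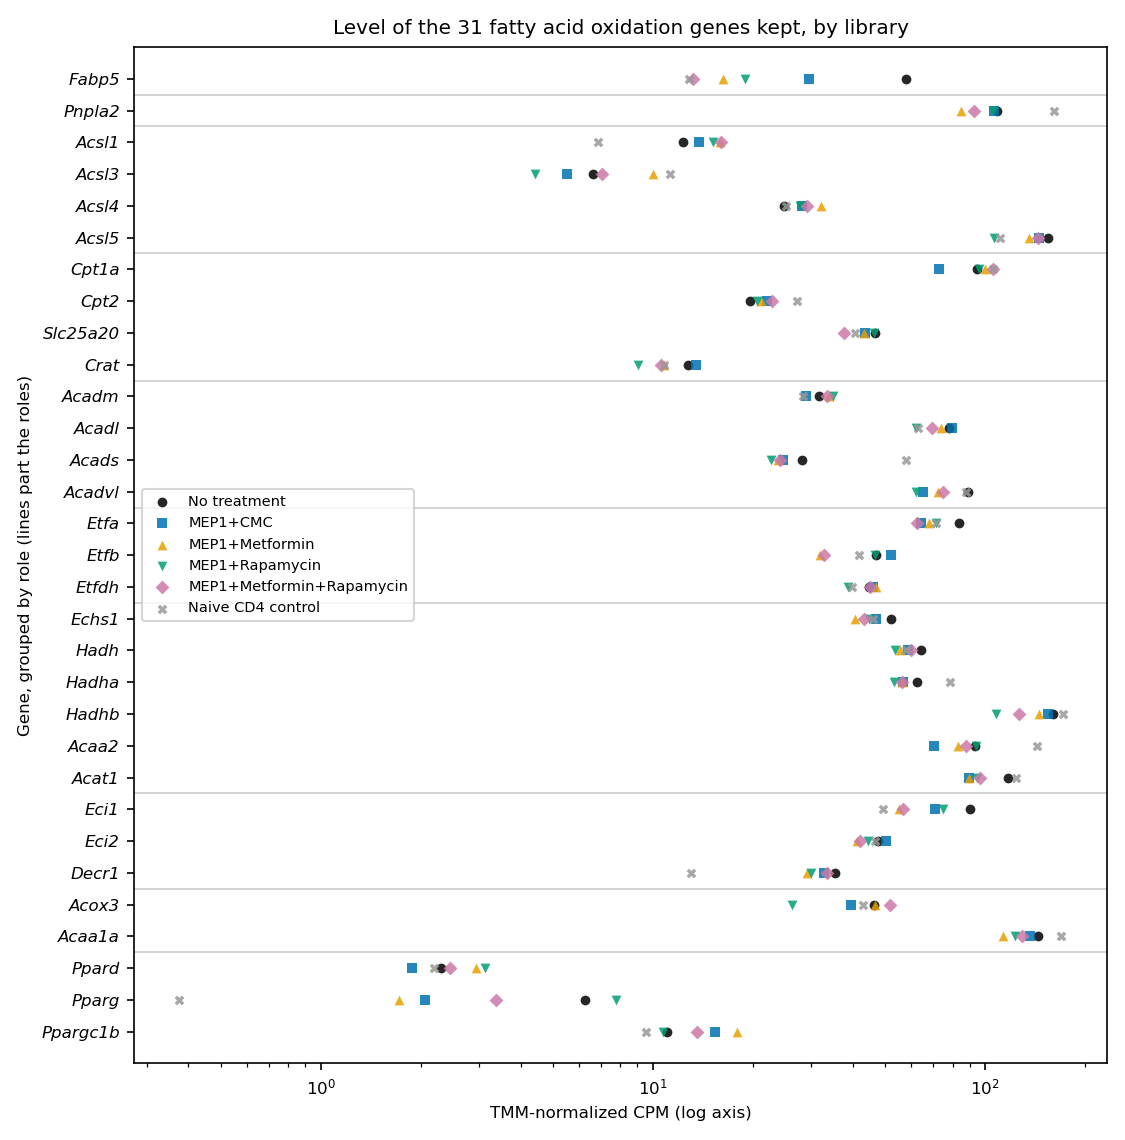
TMM-normalized CPM on a log axis for the 31 members kept, with 1 marker per library and lines that part the roles. Most members sit in a narrow band, while Fabp5 runs from 12.9 to 58.0 and Pparg from 0.374 to 7.74.

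Fabp5 binds fatty acids in the cytosol and carries them to organelles and to the nucleus (chromosome 3, 10012548 to 10016607, GRCm38, in 1-based outer exon bounds as for all genes here). Its TMM-normalized CPM was 58.0 in No treatment, 29.6 in MEP1+CMC, 16.3 in MEP1+Metformin, 19.0 in MEP1+Rapamycin, 13.2 in the combination and 12.9 in naive cells. No treatment was thus the highest library, MEP1+CMC the next, and the combination lay near the naive level. Macrophages also express Fabp5, and the macrophage marker sum was highest in the same library. The part of those cells in the Fabp5 levels was not tested, and in bulk libraries more cells of a type and more RNA per cell cannot be told apart. Fabp5 has processed pseudogene copies in the genome, so how its reads were shared among copies is uncertain.

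Pnpla2 encodes the lipase that opens triglyceride breakdown, and its TMM-normalized CPM was 84.6 to 109 in the transferred libraries and 161 in naive cells. The 4 kept long-chain acyl-CoA synthetases, which make the acyl-CoA that enters the pathway, spanned log2 ratios of -0.77 to 0.86 over the 7 library pairs compared here. Acsl5 was the highest of them per kb and Acsl1 the lowest (1.40 TMM-normalized CPM per kb). Acsl1 stood at 12.4 to 16.1 TMM-normalized CPM in the transferred libraries and at 6.84 in naive cells. Acsl3 was 6.62 in No treatment, 5.54 in MEP1+CMC, 10.03 in MEP1+Metformin, 4.43 in MEP1+Rapamycin, 7.03 in the combination and 11.3 in naive cells.

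The carnitine system kept all 4 of its members, and their log2 ratios lay between -0.58 and 0.55 in the 7 pairs. Cpt1a, the outer membrane transferase that is inhibited by malonyl-CoA and sets the rate of entry, was the highest of the 4 per kb (21.9) and the carnitine acetyltransferase Crat the lowest (2.11). By library, Cpt1a had 95.1 TMM-normalized CPM in No treatment, 72.8 in MEP1+CMC, 100.1 in MEP1+Metformin, 96.3 in MEP1+Rapamycin, 106 in the combination and 106 in naive cells. MEP1+CMC was the lowest of the 6, and the other 5 lay close together. The carrier Slc25a20 and the inner transferase Cpt2 varied by 1.24-fold and 1.17-fold over the transferred libraries.

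Among the acyl-CoA dehydrogenases, which take the first electrons from chains of different length, Acads stood apart. Acads acts on short chains (chromosome 5, 115110299 to 115119346). It had 28.1 TMM-normalized CPM in No treatment, 24.7 in MEP1+CMC, 23.9 in MEP1+Metformin, 22.7 in MEP1+Rapamycin, 24.1 in the combination and 58.1 in naive cells. The transferred libraries lay within 1.24-fold of each other and all below the naive one. The enzymes for very long (Acadvl), long (Acadl) and medium (Acadm) chains had log2 ratios of -0.45 to 0.31 over the 7 pairs. Acadl was the highest of the role per kb (36.2) and Acadm the lowest (8.33). Reads of Acadvl are less certain, since 42.9% of its exon bases overlap Dvl2 on the opposite strand and whether the counting used strand is not stated.

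The electron transfer flavoprotein (Etfa, Etfb) and the oxidoreductase Etfdh, which hands its electrons to ubiquinone, were all kept. Etfb was 47.1 TMM-normalized CPM in No treatment, 52.3 in MEP1+CMC and 46.7 in MEP1+Rapamycin, but 32.0 in MEP1+Metformin and 32.8 in the combination, and 41.7 in naive cells. Both libraries given metformin were thus the lowest for Etfb. Of its exon bases 58.2% are shared with Gm45233 and Mir7051 on the same strand, so its reads may be split among these genes. Etfa and Etfdh varied by 1.34-fold and 1.21-fold over the transferred libraries.

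The 6 hydratase, dehydrogenase and thiolase genes complete the turn of the cycle. Acaa2 (chromosome 18, 74779197 to 74806207) had 93.6 TMM-normalized CPM in No treatment, 70.3 in MEP1+CMC, 83.3 in MEP1+Metformin, 94.2 in MEP1+Rapamycin, 87.6 in the combination and 144 in naive cells, which were the highest. The hydratase Echs1 was the lowest of the role per kb (5.51). Hadha and Hadhb, the subunits of the trifunctional protein for long chains, varied by 1.18-fold and 1.49-fold over the transferred libraries, and the lowest Hadhb level was in MEP1+Rapamycin (108, against 127 to 161 in the other transferred libraries).

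Unsaturated fatty acids need auxiliary enzymes. Decr1, the mitochondrial 2,4-dienoyl-CoA reductase (chromosome 4, 15917240 to 15945507), had 35.3 TMM-normalized CPM in No treatment, 32.9 in MEP1+CMC, 29.1 in MEP1+Metformin, 29.98 in MEP1+Rapamycin, 33.4 in the combination and 13.1 in naive cells. All 5 transferred libraries were more than 2-fold above the naive one. Eci1 was 90.1 in No treatment, 70.8 in MEP1+CMC, 74.7 in MEP1+Rapamycin, 55.1 in MEP1+Metformin and 56.6 in the combination, with 49.4 in naive cells. The isomerase Eci2 varied by 1.22-fold over the transferred libraries. In peroxisomes, the thiolase Acaa1a (29.4 per kb; it has a near-identical copy, Acaa1b, so its reads may be split) varied by 1.28-fold and the acyl-CoA oxidase Acox3 (3.66 per kb) by 1.98-fold. Acox3 was lowest in MEP1+Rapamycin, at 26.3 TMM-normalized CPM against 39.7 to 51.9 in the other transferred libraries.

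The transcription factors were low. Pparg, a nuclear receptor that binds fatty acids and drives lipid storage and uptake genes (chromosome 6, 115360951 to 115490399), had 6.25 TMM-normalized CPM in No treatment, 2.06 in MEP1+CMC, 1.73 in MEP1+Metformin, 7.74 in MEP1+Rapamycin, 3.37 in the combination and 0.374 in naive cells. These rest on 378, 123, 87, 262, 191 and 7 counts. The 2 highest libraries were No treatment and MEP1+Rapamycin. The macrophage marker sum was 4148 in the first, 640 in the second and 640 to 920 in the other MEP1 libraries. The 7 dendritic cell markers summed to 24.0 in MEP1+Rapamycin, 15.0 in No treatment, 13.2 in MEP1+CMC, 16.2 in MEP1+Metformin, 8.74 in the combination and 2.46 in naive cells. The high sum in MEP1+Rapamycin came from Siglech, a plasmacytoid dendritic cell gene, at 11.9. The other 6 markers summed to 12.02 there, 11.97 in No treatment and 6.90 to 10.8 in the other transferred libraries. Among them, Cd209a (2.16) and Clec9a (0.561) were at their highest transferred level in MEP1+Rapamycin and Flt3 (0.295) at its lowest. Itgax, Xcr1 and Zbtb46 were at neither extreme there. The part of macrophages or dendritic cells in the Pparg levels was not tested. Ppard stayed between 1.89 and 3.13 and the coactivator Ppargc1b between 10.7 and 17.9 in the transferred libraries.

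**Figure D2:**
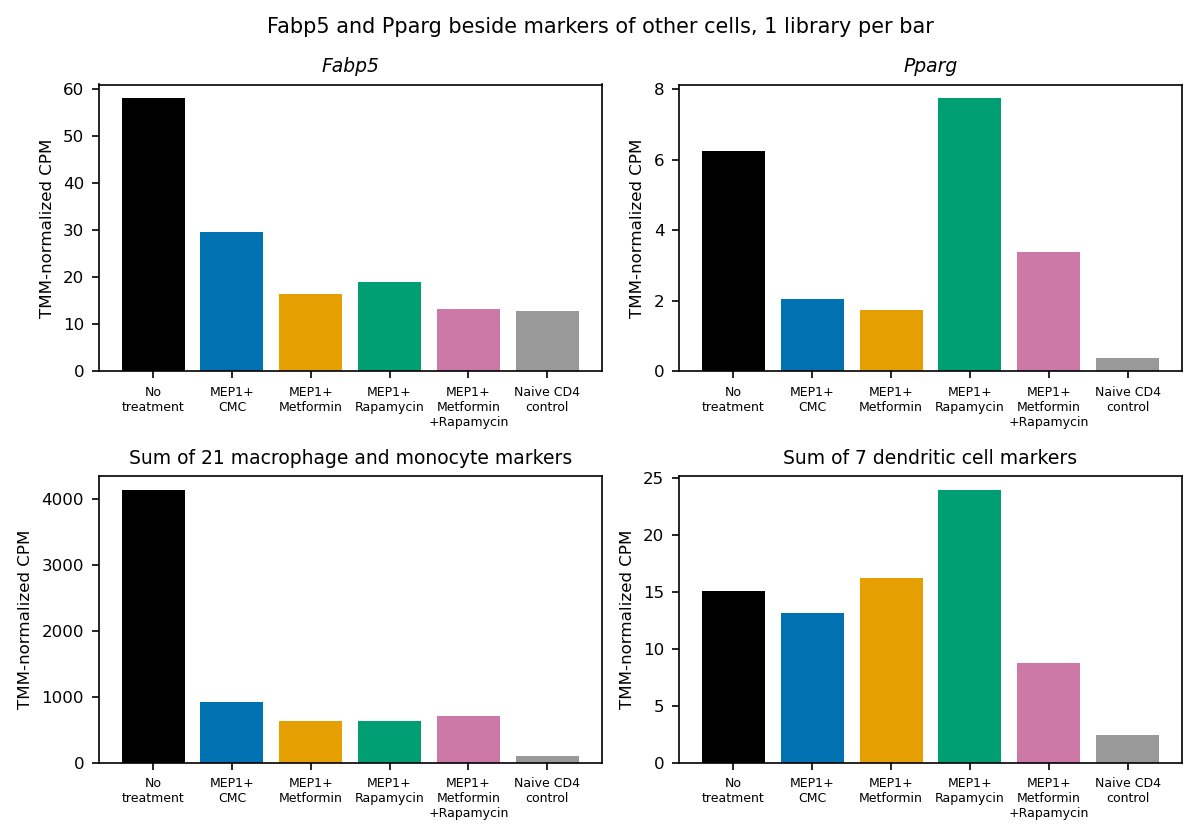
TMM-normalized CPM of Fabp5 and Pparg (top) and the summed TMM-normalized CPM of 21 macrophage and monocyte and 7 dendritic cell markers (bottom), with 1 library per bar and no error bars since each condition had 1 library. Fabp5 and the macrophage sum are both highest in No treatment (58.0 and 4148), and Pparg and the dendritic sum are both highest in MEP1+Rapamycin (7.74 and 24.0), where Siglech alone gives 11.9 of the sum.

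Nuclear receptors of the PPAR family act on pairs of the half-site AGGTCA, and estrogen-related receptors on the same half-site with a TCA before it. Start-site windows (250 bases before to 50 after the start, RefSeq, GRCm38.p6) matched 29 of the 35 members with 34 windows. On either strand the half-site AGGTCA was in 8 windows (23.5%) of 7 members, Acadm, Acadvl, Acsl6, Cd36, Cpt1a, Echs1 and Pparg, against 16.3% of all 32851 windows. The longer letters TCAAGGTCA, which contain the half-site, were in 1 window (2.94%, of Acsl6) against 0.423% of all. A pair of half-sites as a direct repeat spaced by 1 base was in 0 member windows and in 0.0396% of all. A match of letters is a description and not a bound site. The 250 bases before the start are shown 5′ to 3′ on the gene's strand for the 2 Pparg starts that hold a half-site, since Pparg varied most, for Cpt1a, the entry enzyme, and for Acads, which fell most in the fit below. Capitals mark the half-site, which Cpt1a holds on the other strand and Acads does not hold.
Pparg at chr6:115360894-115361143 (plus strand): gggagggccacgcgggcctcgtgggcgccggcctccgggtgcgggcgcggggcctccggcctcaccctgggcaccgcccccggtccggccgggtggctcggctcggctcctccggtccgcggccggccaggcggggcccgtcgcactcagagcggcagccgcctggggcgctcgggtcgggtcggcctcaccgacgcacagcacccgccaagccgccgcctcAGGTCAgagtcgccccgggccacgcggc
Pparg at chr6:115362099-115362348 (plus strand): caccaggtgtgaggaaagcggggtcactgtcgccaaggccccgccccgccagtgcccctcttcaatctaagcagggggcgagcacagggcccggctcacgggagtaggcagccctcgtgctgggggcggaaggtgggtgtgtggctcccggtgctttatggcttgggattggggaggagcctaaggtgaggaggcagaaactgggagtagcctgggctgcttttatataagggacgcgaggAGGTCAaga
Cpt1a at chr19:3323051-3323300 (plus strand): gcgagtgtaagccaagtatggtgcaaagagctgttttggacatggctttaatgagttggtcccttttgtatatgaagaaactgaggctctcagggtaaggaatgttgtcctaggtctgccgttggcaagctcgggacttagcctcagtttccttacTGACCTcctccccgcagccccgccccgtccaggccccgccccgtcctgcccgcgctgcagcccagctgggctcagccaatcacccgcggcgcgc
Acads at chr5:115119347-115119596 (minus strand): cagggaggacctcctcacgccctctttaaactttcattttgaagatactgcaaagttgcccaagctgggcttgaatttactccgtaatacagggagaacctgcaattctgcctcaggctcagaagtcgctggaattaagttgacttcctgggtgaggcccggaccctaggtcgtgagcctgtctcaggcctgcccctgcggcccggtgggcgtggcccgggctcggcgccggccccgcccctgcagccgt

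Transferred cells were compared with naive cells, for which no transfer, immunisation or later exposure is given. The naive library also differs in its share of ribosomal RNA-like loci, its sex-linked genes and its macrophage marker sum (106, against 4148 in No treatment). These differences cannot be told apart from the exposures, and the part of macrophages in the ratios below was not tested. In No treatment against naive cells, Pparg, Fabp5 and Decr1 were at least 2-fold higher and Acads was at least 2-fold lower. That is 3 of 31 members higher, where 15.8% of all genes were, and 1 lower, where 8.21% of all genes were. The member ratios had a median log2 of 0.15 (all genes 0.03), and 22 of 31 lay within 0.5 of no change, against 51.9% of all genes. The log2 ratio was 4.06 for Pparg (95% counting interval 3.01 to 5.39), 2.17 for Fabp5 (1.98 to 2.37), 1.43 for Decr1 (1.24 to 1.63) and -1.05 for Acads (-1.16 to -0.93). Eci1 (0.87) and Acsl1 (0.85) were the next above 0, and Acsl3 (-0.77) and Acaa2 (-0.62) the next below. With library totals in place of TMM, the median of all genes moved from 0.03 to 0.51, and Acads was at -0.57, no longer past 2-fold. All genes past 2-fold were then 3284 higher and 427 lower, against 2042 and 1061 with TMM.

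**Figure D3:**
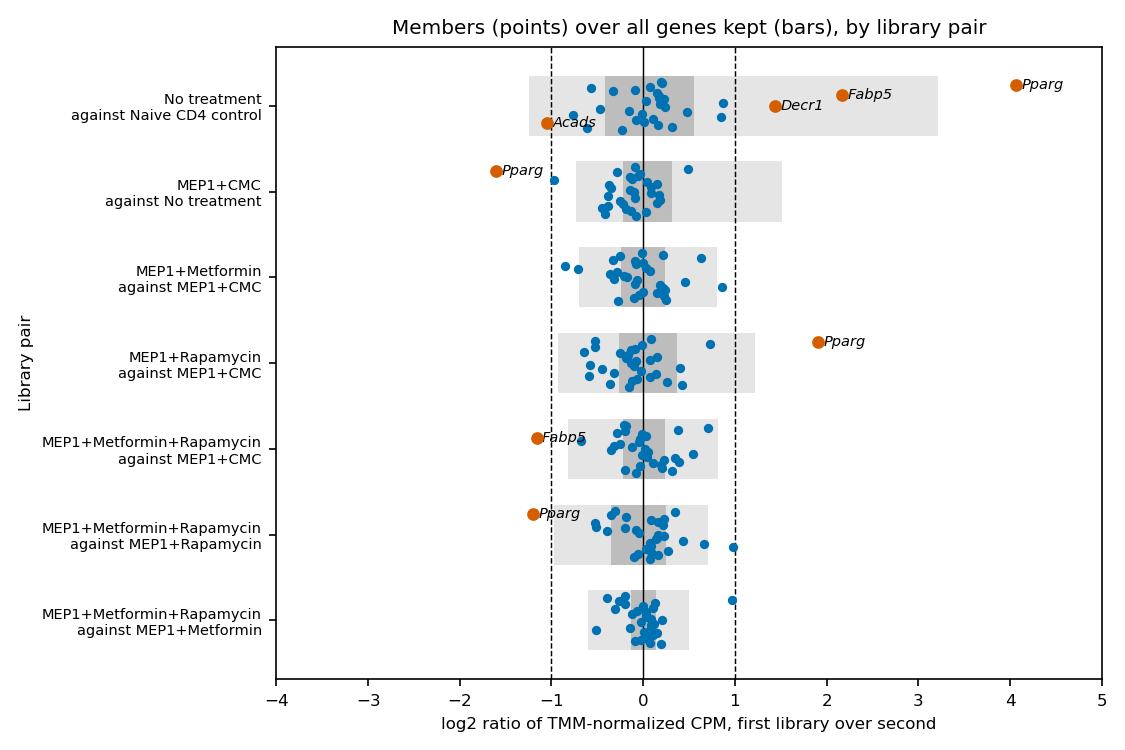
log2 ratio of TMM-normalized CPM in the 7 library pairs: points are the 31 members, orange and named where at least 2-fold with a counting interval that excludes no change. Dark bars span the middle 50% and light bars the middle 90% of all genes kept, and dashed lines mark 2-fold. Points crowd near 0 in each pair, and the members past 2-fold are Pparg, Fabp5, Decr1 and Acads.

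A fit over all 6 libraries tested the 5 transferred libraries against the naive one. Decr1 rose and Acads and Acaa2 fell, each in 5 of 5 transferred libraries. Decr1 had a log2 fold change of 1.30 (SE 0.24, adjusted p = 0.0146, edgeR quasi-likelihood test with Benjamini-Hochberg adjustment over all genes, as in all fits here). Acads had -1.23 (SE 0.18, adjusted p = 0.00704) and Acaa2 -0.74 (SE 0.19, adjusted p = 0.0446). So 1 of 31 members rose, where 4.51% of all genes did, and 2 fell, where 5.9% of all genes did. The lipase gene Pnpla2 (-0.70, adjusted p = 0.0501) and the synthetase Acsl1 (1.10, adjusted p = 0.0659) missed the threshold, as did Fabp5 (1.09, SE 0.93, adjusted p = 0.461) and Pparg (3.44, SE 1.81, adjusted p = 0.243), whose transferred libraries differed widely. The trifunctional subunit Hadha had -0.47 (adjusted p = 0.113). All 5 transferred libraries were above the naive one for 7 of 31 members (35.6% of all genes) and below it for 9 (31.8% of all genes).

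The spread in this fit comes from the 5 transferred libraries, which had different treatments, and the naive side is 1 library, the one with 15.4% of counts at loci resembling ribosomal RNA. Leaving those loci out of the scaling left the same 3 calls. The naive library also had few Y-linked transcripts, which 4 of the 5 transferred libraries carry. MEP1+CMC shares the naive pattern of Xist with little Ddx3y. Its Decr1 level was 32.9 TMM-normalized CPM against 13.1 in naive cells, with Acads at 24.7 against 58.1 and Acaa2 at 70.3 against 144. Each side there is 1 library, and the part of sex in the 3 calls was not tested. With library totals 8 members rose (Acadl, Acadm, Acsl1, Acsl5, Decr1, Eci1, Etfdh and Slc25a20) and only Acads fell, and over all genes 2424 rose and 182 fell, against 583 and 763 with TMM. Acaa2 was then at -0.17 (adjusted p = 0.537). Without the MEP1+CMC, the MEP1+Metformin or the combination library, Acaa2 missed the threshold (adjusted p = 0.0758, 0.0891 and 0.0912). Without No treatment, Pnpla2 (adjusted p = 0.0264) and Acsl1 (adjusted p = 0.0254) were called too. Decr1 and Acads were called in the same direction under all 13 alternatives run, with the highest adjusted p at 0.0401 for Decr1 and 0.0428 for Acads.

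**Figure D4:**
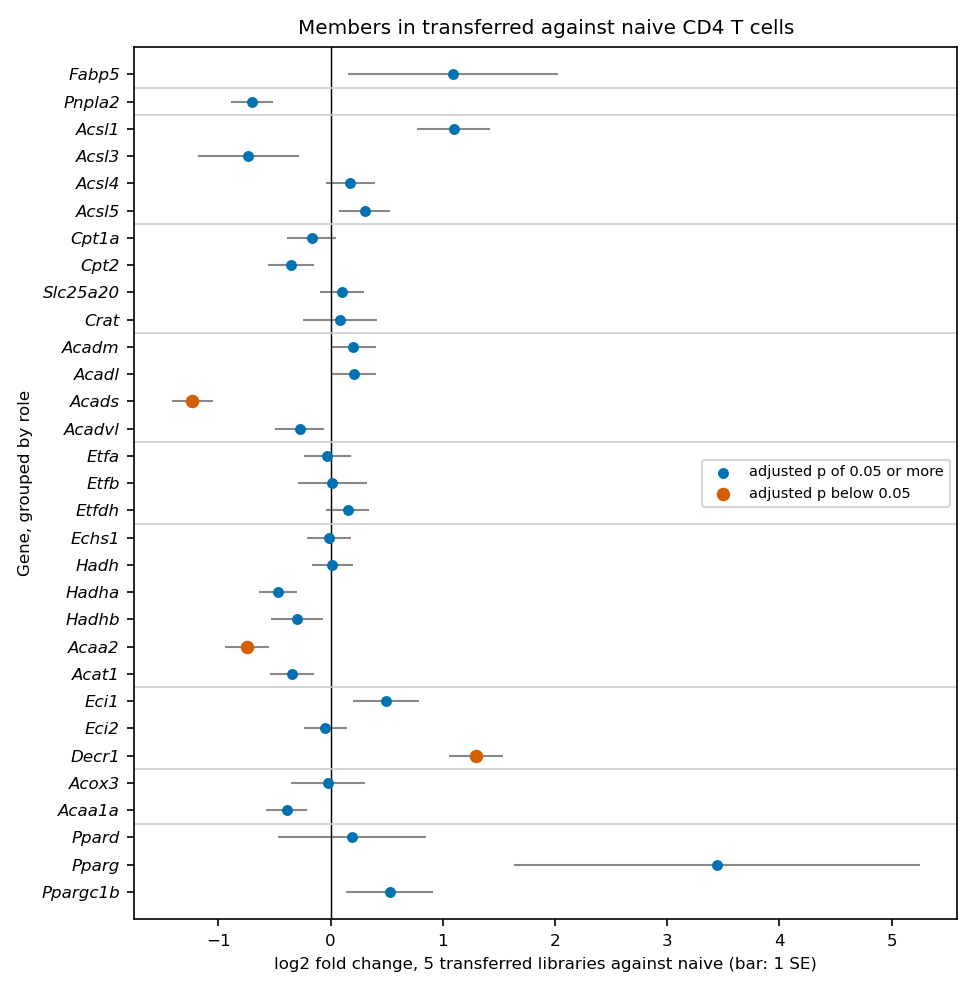
log2 fold change of the 31 members, transferred against naive, with bars of 1 SE from the edgeR fit and the genes grouped by role. Acads and Acaa2 (orange) lie below 0 and Decr1 (orange) above 0, while the bars of Pparg and Fabp5 are wide (SE 1.81 and 0.93).

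Other genes around the pathway were read from 4 lists in the same fit, in which 4.51% of all genes rose and 5.9% fell. Over all genes, falls went from 763 with TMM to 182 with library totals. None of 29 further beta oxidation genes were called. Of 16 uptake, storage and lipolysis genes, 2 fell and 0 rose. These were G0s2, whose product inhibits the Pnpla2 lipase (log2 fold change -3.17, SE 0.65, adjusted p = 0.0213), and the acetyl-CoA synthetase Acss2 (-1.09, SE 0.20, adjusted p = 0.0145). Of 10 genes of malonyl-CoA and AMPK, 2 fell and 0 rose. They were Fasn, the fatty acid synthase, at -1.10 (SE 0.16, adjusted p = 0.00704) and Stk11, a kinase that activates AMPK, at -0.63 (SE 0.17, adjusted p = 0.0491). Of 18 PPAR partners and targets, 2 fell (Rxrb -0.98 and Esrra -0.95) and 2 rose (Ncoa1 1.62 and Sirt1 1.60). Rxrb encodes a partner of the PPAR receptors, Esrra an estrogen-related receptor, and Ncoa1 and Sirt1 a coactivator and a deacetylase.

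MEP1+CMC against No treatment sets MEP1 on days 28 and 35, followed by the CMC vehicle, against neither, as read at day 63. Whether the day 56 challenge differed as well cannot be told apart from this contrast. Pparg was lower in MEP1+CMC (log2 ratio -1.60, interval -1.91 to -1.31). Fabp5 was lower by just under 2-fold (-0.97, interval -1.05 to -0.89). None of 31 members was at least 2-fold higher, where 8.69% of all genes were, and 1 was at least 2-fold lower, where 3.51% were. The median was -0.12 (all genes 0.01), and 22 of 31 members were below 0, against 6386 of 12928 genes. Within 0.5 of no change lay 29 members, against 73.5% of all genes. Lyz2, a macrophage gene, was 1675 TMM-normalized CPM in No treatment and 319 in MEP1+CMC, in the same direction as Fabp5 and Pparg. Xist was 257 in MEP1+CMC and 23.0 in No treatment, and Ddx3y 0.301 and 34.2. The part of macrophages or of sex in these ratios was not tested. The highest ratio was that of Ppargc1b (0.49). Of 16 uptake, storage and lipolysis genes in the pathway lists, 2 were at least 2-fold higher and 1 was lower. The lower one was the lipoprotein lipase Lpl, at 2.23 TMM-normalized CPM in MEP1+CMC against 6.38 in No treatment. The highest log2 ratio in that list was 1.62. Of 29 further beta oxidation genes 0 were higher and 1 was lower, and the same held for 18 PPAR partners and targets. Of 10 malonyl-CoA and AMPK genes 0 passed.

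All 4 MEP1 libraries against No treatment gave no member called in the edgeR quasi-likelihood fit, where 1.35% of all genes were. At an unadjusted p below 0.05 there were 2 of 31 (6.45%, against 17.0% of all genes), Fabp5 and Eci1. Fabp5 had a log2 fold change of -1.57 (SE 0.34, adjusted p = 0.0761) and was lower in 4 of 4 MEP1 libraries, and Eci1 had -0.49 (SE 0.21, adjusted p = 0.286), also lower in 4 of 4. In all, 24 of 31 members were below 0 with a median of -0.17, against 6322 of 12928 genes and a median of 0.01 for all genes. Without the MEP1+CMC library Fabp5 was called (-1.85, adjusted p = 0.0199), and a DESeq2 Wald test also called it (-1.57, adjusted p = 0.00389). Over all the alternatives the adjusted p of Fabp5 ran from 0.00389 to 0.178. The No treatment side is the single library with the highest macrophage and erythroid sums.

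Metformin, rapamycin and their combination were each compared with MEP1+CMC, which is thus shared by these 3 comparisons. With metformin none of 31 members was past 2-fold, where 5.88% of all genes were. The widest differences were Fabp5 at -0.86 (interval -0.98 to -0.73), Acsl3 at 0.86 (0.65 to 1.06), Etfb at -0.71 (-0.80 to -0.62) and Ppard at 0.64 (0.27 to 1.00). Cpt1a was at 0.46 (0.40 to 0.52). The member median was -0.05, with -0.01 for all genes. Dgat2, the last enzyme of triglyceride synthesis, was high in MEP1+CMC (18.9 TMM-normalized CPM) against all 3 inhibitor libraries (3.79 with metformin, 2.24 with rapamycin and 4.54 with both) and against No treatment (6.17).

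With rapamycin Pparg was higher (log2 ratio 1.91, interval 1.60 to 2.23), the 1 of 31 members past 2-fold, where 7.4% of all genes were higher. None was at least 2-fold lower, where 4.49% of all genes were. Fabp5 was at -0.64, Acox3 at -0.60, Crat at -0.58 and Hadhb at -0.52, each with a counting interval below 0. Ppargc1b was at -0.53. After Pparg, the next above 0 were Ppard (0.73, on 106 counts with rapamycin and 113 in MEP1+CMC), Acaa2 (0.42) and Cpt1a (0.40). The member median was -0.10, with 0.03 for all genes. With TMM factors taken over all genes before the filter, the median of all genes in this pair moved to -0.13, and all genes past 2-fold were 713 higher and 741 lower, against 957 and 581. Acacb, the acetyl-CoA carboxylase that makes the malonyl-CoA at mitochondria, was 2.42 TMM-normalized CPM with rapamycin and 0.771 in MEP1+CMC. Both levels are near or below the 2 CPM needed to be kept. It was the 1 of 10 malonyl-CoA and AMPK genes past 2-fold. Of 16 uptake, storage and lipolysis genes, 1 was higher and 2 were lower. Of 29 further beta oxidation genes, 0 were higher and 1 was lower.

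With the combination Fabp5 was lower (log2 ratio -1.16, interval -1.29 to -1.04), the 1 of 31 members past 2-fold, where 3.64% of all genes were lower. None was at least 2-fold higher, where 3.22% of all genes were. Etfb was at -0.67 (-0.76 to -0.59), Cpt1a at 0.55 (0.49 to 0.60) and Pparg at 0.71 (0.38 to 1.05). The member median was -0.01 and that of all genes -0.0026. In every inhibitor library Cpt1a was above and Fabp5 below MEP1+CMC. As the 3 ratios share the MEP1+CMC library, they do not repeat each other independently.

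The combination was also set against each inhibitor alone, and these 3 libraries have alike sex-linked genes. Against MEP1+Rapamycin, Pparg was lower (log2 ratio -1.20, interval -1.48 to -0.92), the 1 of 31 members past 2-fold, where 4.6% of all genes were lower, and none was at least 2-fold higher, where 2.38% were. Acox3 lay just inside 2-fold at 0.98 (0.88 to 1.09), and it was past 2-fold under the 3 other scalings planned and the one added. Fabp5 was at -0.52, Etfb at -0.51 and Acsl3 at 0.67. Against MEP1+Metformin, none of 31 members was past 2-fold, where 3.12% of all genes were, and 29 of 31 lay within 0.5 of no change (88.5% of all genes). Pparg was the widest there, at 0.96 (0.59 to 1.35).

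The 4 MEP1 libraries form a grid of metformin and rapamycin, in which each inhibitor can be read in 2 pairs that share no library. For each inhibitor, the pair with MEP1+CMC also differs in sex-linked genes (Xist 257 TMM-normalized CPM in MEP1+CMC, 0.218 to 0.532 in the inhibitor libraries). Inhibitor and sex cannot be told apart in those pairs, and the additive model below includes MEP1+CMC too. For metformin the 2 ratios had the same sign in 16 of 31 members (51.6%, against 57.7% of all genes), and for rapamycin in 15 (48.4%, against 57.3%). For Fabp5 the metformin ratio was -0.86 without and -0.52 with rapamycin, for Etfb -0.71 and -0.51, and for Acsl3 0.86 and 0.67. For Pparg the rapamycin ratio was 1.91 without and 0.96 with metformin. An additive edgeR quasi-likelihood model of the 4 libraries called no member for metformin (0.124% of all genes called) and none for rapamycin (0.232%). At an unadjusted p below 0.05 there were 5 members for metformin (16.1%, against 10.9% of all genes) and 3 for rapamycin (9.68%, against 7.43%). The lowest adjusted p was 0.30 for metformin (Etfb, log2 fold change -0.61, SE 0.17) and 0.39 for rapamycin (Pparg, 1.48, SE 0.43).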

How the data were processed

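RNA was sequenced from 6 libraries, 1 per condition. Library preparation was ultra-low-input, per the labels' protocols. The authors deposited raw read counts per gene over exons, and the submitters' processing notes name Trimmomatic 0.36, STAR 2.5.2b, featureCounts of Subread 1.5.2 and build GRCm38. The strand setting and the handling of reads with several alignments are not given in the sources used here. Gene symbols came from GENCODE M21.

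Genes with at least 2 CPM in at least 1 library were kept (12928), and TMM factors (0.716 to 1.13) came from these genes, in edgeR 4.0.16 under R 4.3.3. In 7 library pairs, a gene passed when the TMM ratio was at least 2-fold and its 95% interval (exact, Clopper-Pearson, from both counts) excluded no change, with a count of 0 set to 3 counts per library. The labels name no molecular identifiers, and intervals and the floor then describe counting error only, as PCR copies of a molecule are counted too. The 4 fits (glmQLFit and glmQLFTest, robust) called genes at an adjusted p below 0.05. They had 4, 3, 1 and 1 residual degrees of freedom. Their spread also holds treatment differences between libraries on 1 side, and a lone library is assumed to vary like the rest. Both procedures were run on simulated counts with set fold changes. Those counts did not model differences in sex, other cells or PCR copies, so they do not show how sure the calls here are. Intervals used scipy 1.17.1, numpy 2.4.6 and pandas 2.3.3 under Python 3.11.15.

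Alternatives were DESeq2 1.42.0 size factors and Wald test, library totals, TMM without 5 loci resembling ribosomal RNA, no filter, a mean of at least 10 CPM, removal of a trend on gene length in 20 bins, legacy quasi-likelihood, and leaving out each library. TMM over all genes was added after seeing the data. Every library value is given for the 5 members past 2-fold in a pair or called in a fit, and others by role. The members and lists were chosen with earlier results of these data known.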

Additional observations from a re-analysis of the deposited data

How the results depend on the processing

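Counts of members past 2-fold moved with the filter. Without one, all 35 members are counted, with the 4 below 2 CPM in every library (Cd36, Ppargc1a, Acsl6 and Ppara) among them. Without a filter, where the factors come from all genes, the count was 3 for MEP1+CMC against No treatment (1 as reported), 1 for metformin (0), 3 for rapamycin (1) and 2 for the combination (1) against MEP1+CMC, and 4 for the combination against MEP1+Rapamycin (1). Over all genes the share past 2-fold rose as well without a filter, from 12.2% to 14.0%, 5.88% to 11.6%, 11.9% to 20.1%, 6.86% to 10.7% and 6.98% to 16.0% in the same order. With a mean of at least 10 CPM, which leaves Pparg out, the count was 0 for MEP1+CMC against No treatment, for rapamycin against MEP1+CMC and for the combination against MEP1+Rapamycin. With TMM over all genes it was 2 for MEP1+CMC against No treatment. For the combination against MEP1+Rapamycin it was 2 with DESeq2 size factors, library totals, TMM without the ribosomal RNA-like loci or TMM over all genes. The reversed member medians were 0.074 for metformin and 0.10 for the combination against MEP1+CMC with library totals, where the medians of all genes moved alike, to 0.113 and 0.112. With the length trend removed, the median for the combination against MEP1+Rapamycin was -0.028, as for all genes (-0.028).

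In the fit of transferred against naive libraries, 3 members were called. The number was 9 with library totals, 5 with a mean of at least 10 CPM, 5 with legacy quasi-likelihood and 6 with the DESeq2 Wald test, while the share of all genes called went from 10.4% to 20.2%, 19.0%, 18.3% and 28.9%. It was 2 to 5 when 1 library was left out. Acaa2 lost its call with library totals (-0.17), TMM over all genes (-0.76, adjusted p = 0.0542) and no filter (-0.76, adjusted p = 0.122), besides without the libraries named in the report. For MEP1 libraries against No treatment the number was 1 without a filter, 1 with the DESeq2 Wald test and 0 to 1 when 1 library was left out. The metformin and rapamycin terms called 0 members under every alternative run, and these 2 fits could not be run without a library, since no residual degree of freedom is left. No paired analysis was possible because each condition had 1 library.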
